A study of Mus musculus with 15 samples.

Results

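Fgf5, Otx2, Pou3f1, Sox3, Sox4, Zic2, Cdh2 and Foxd3, 8 genes known from the epiblast as it leaves the naive state and from the early neural lineage, were read by symbol from a table of 26061 genes. All 8 were found, and all 8 were among the 19490 genes that passed the filter on low values. The table holds RNA-seq of mouse embryonic stem cells (ESCs) of the E14 line, which has a 129/Ola background, in 15 libraries. The cells carried a lentiviral short hairpin RNA without a target (shScr), against Tet1 (shTet1) or against Tet2 (shTet2), with 5 libraries in each group, and were harvested after 3 days in puromycin. All 3 groups were grown without feeders in serum and leukaemia inhibitory factor, and all 3 went through transduction and selection. The study used 1 hairpin per target in 1 cell line, so that effects of a hairpin other than on its target cannot be told apart from those of the depletion. The labels do not say whether the 5 libraries of a group came from separate cultures, and the p-values measure only the spread between these libraries. In bulk RNA of such cultures, a lower value can come from fewer cells that express a gene or from less RNA per cell, and these cannot be told apart.

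TET1 and TET2 are enzymes that oxidise 5-methylcytosine, which in mammals lies mostly in CG dinucleotides. ESCs in serum resemble the epiblast before implantation, and such cultures vary from cell to cell in how far they have moved towards the post-implantation state. On that path cells raise the homeobox factor Otx2, the POU factor Pou3f1 (also called Oct6) and the growth factor Fgf5. Cells that enter the neural lineage later exchange E-cadherin (Cdh1) for N-cadherin (Cdh2). Foxd3 is a forkhead factor that is needed in the epiblast and in the neural crest. Sox3 is a relative of Sox2 in early neural cells, Sox4 is a more widely used factor of the SoxC group, and Zic2 is a zinc finger factor that occupies enhancers in ESCs.

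By GENCODE vM1 (mm9), Otx2 and Zic2 share chromosome 14 without being neighbours (49277354 to 49287319 on the minus strand and 122874604 to 122879074 on the plus strand). Foxd3 (99322990 to 99325362) and Pou3f1 (124334896 to 124337899) are both on the plus strand of chromosome 4. Fgf5 lies on chromosome 5 (98683203 to 98706049, plus strand), Sox4 on chromosome 13 (29040788 to 29045582, minus strand) and Sox3 on chromosome X (58144545 to 58146605, minus strand). Foxd3, Pou3f1 and Sox3 have 1 exon each, and the transcripts of Otx2 have up to 5. The exons of Sox4 are overlapped over 54.6% of their length by a predicted gene on the opposite strand, Gm17419. Whether the counting used strand is not given in the sources used here. Gm17419 itself had 4 to 57 reads per library, against 484 to 1644 for Sox4.

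The RefSeq promoter table (GRCm38.p6), which holds the 250 bases before and 50 after a transcription start, had windows for Otx2 (4 starts), Sox4, Fgf5 and Foxd3. The windows of Otx2 and Sox4 are shown because these were the members that passed the test between the depletions, and that of Foxd3 because it was the member with the highest level per length. Their coordinates are of that build, not of mm9. They run 5′ to 3′ on the strand of the gene, and capitals mark CG, the dinucleotide on which TET enzymes mainly act.
Otx2, most upstream start, chr14:48667595-48667894, minus strand: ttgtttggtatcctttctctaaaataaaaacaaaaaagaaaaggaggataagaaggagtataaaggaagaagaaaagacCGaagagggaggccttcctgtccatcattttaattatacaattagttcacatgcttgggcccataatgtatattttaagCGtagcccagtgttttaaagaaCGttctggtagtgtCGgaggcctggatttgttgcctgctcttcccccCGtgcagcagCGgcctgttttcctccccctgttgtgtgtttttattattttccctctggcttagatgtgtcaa
Otx2, the third start, chr14:48665060-48665359, minus strand: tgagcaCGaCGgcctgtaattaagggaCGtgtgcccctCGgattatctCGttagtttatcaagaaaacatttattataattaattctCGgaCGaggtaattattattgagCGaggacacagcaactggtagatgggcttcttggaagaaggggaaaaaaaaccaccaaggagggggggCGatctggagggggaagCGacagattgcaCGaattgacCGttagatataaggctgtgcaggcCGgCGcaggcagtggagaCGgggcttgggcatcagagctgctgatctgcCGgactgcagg
Sox4, chr13:28953650-28953949, minus strand: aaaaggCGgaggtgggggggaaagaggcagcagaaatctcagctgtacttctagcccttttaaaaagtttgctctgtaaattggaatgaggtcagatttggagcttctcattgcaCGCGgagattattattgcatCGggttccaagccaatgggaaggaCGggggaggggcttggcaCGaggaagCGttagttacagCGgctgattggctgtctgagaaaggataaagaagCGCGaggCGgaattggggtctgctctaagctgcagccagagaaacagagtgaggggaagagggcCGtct
Foxd3, chr4:99656049-99656348, plus strand: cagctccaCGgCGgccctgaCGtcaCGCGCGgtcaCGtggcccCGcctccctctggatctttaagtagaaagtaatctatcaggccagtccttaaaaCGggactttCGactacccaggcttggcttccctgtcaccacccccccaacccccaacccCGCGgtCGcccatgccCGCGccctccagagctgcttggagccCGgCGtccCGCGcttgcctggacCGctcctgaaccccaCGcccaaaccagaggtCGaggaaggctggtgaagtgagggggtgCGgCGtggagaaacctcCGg
These windows differed widely in CG content. The most upstream window of Otx2 held 6 CG and was 41.7% G or C, whereas the third held 16 CG. The Sox4 window held 12, that of Foxd3 25 and that of Fgf5 29, which put it at percentile 88.3 of the 32851 windows in the table. The median over all windows was 7. 3 motifs were searched on both strands and counted separately, so that matches could overlap. They were the TATA box TATAAA, the core TAATCC bound by OTX factors and the octamer ATGCAAAT bound by POU factors. TATAAA was found in the Fgf5 window and in the most upstream window of Otx2, and in 13.6% of all windows. TAATCC was found in the third window of Otx2 alone among the 7 windows, and in 7.06% of all windows. ATGCAAAT was found in none of the 7, and in 1.74% of all windows.

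Undoing the authors' transformation returned between 15258291 and 35432425 gene reads per library. Both hairpins lowered their target, with Tet1 at 27.8% of its shScr reads in shTet1 and Tet2 at 26.6% in shTet2. Pou5f1 and Sox2, core pluripotency factors, stood at 380 and 239 RPKM (reads per kb of exon per 1000000 gene reads) in shScr. Replicates 1 and 2 stood apart from replicates 3 to 5 in all 3 groups along the first component of the deviations from the group means, which held 38.1% of their variance. No label names a batch, and values within each set of replicates are given below. In 4 libraries (shScr replicate 4, shTet1 replicates 3 and 4 and shTet2 replicate 4), the reads of 1451 genes for receptors of smell and pheromones came to 54.5 to 64.7 per 1000000 gene reads. In the other 11 libraries they came to 11.1 to 26.5 per 1000000.

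To see how strongly control cells used the 8 genes, reads were divided by exon length and by gene reads. Foxd3 was highest, with 18.3 ± 7.43 RPKM (SD, n = 5, as for all levels of shScr that follow). Otx2 followed with 11.5 ± 4.2, Sox4 with 9.14 ± 0.918 and Zic2 with 7.88 ± 1.74. Below these 4 came Pou3f1 with 2.95 ± 3.03, Cdh2 with 0.882 ± 0.310, Fgf5 with 0.654 ± 0.538 and Sox3 with 0.388 ± 0.233. Every gene overlapped the next in this order in its range over the 5 libraries, so that these ranges do not rank neighbours. In reads, Sox3 rested on 6 to 31 per library over all 15 libraries and Fgf5 on 14 to 159.

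**Figure D1:**
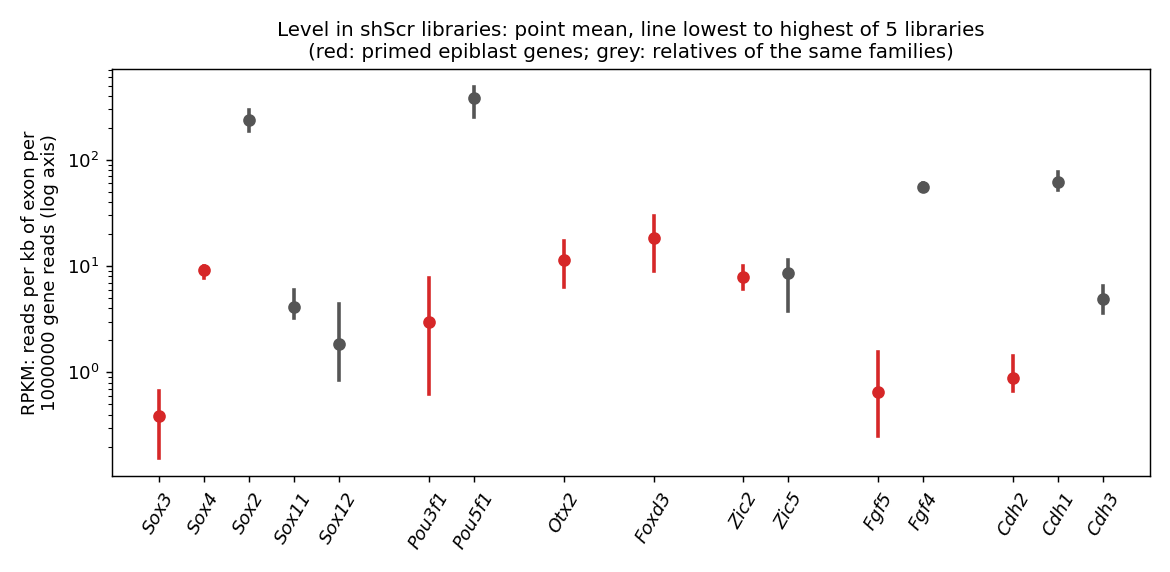
Reads per kb of exon per 1000000 gene reads (RPKM) on a log axis in the shScr libraries, with points for the mean and lines from the lowest to the highest of 5 libraries, for the 8 genes (red) and for relatives (grey). Sox3 (0.388), Fgf5 (0.654) and Cdh2 (0.882) lie below Sox2 (239), Fgf4 (56.0) and Cdh1 (61.4), with no overlap of the ranges.

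In several families the member sat far below a relative that ESCs use. Sox2, a core pluripotency factor, stood at 239 ± 41.2 RPKM, against 0.388 for Sox3. Fgf4, the growth factor that ESCs secrete, stood at 56.0 ± 3.36, and Cdh1 at 61.4 ± 11. Zic5 was at 8.55 ± 2.88, with a range that overlapped that of Zic2. Sox11 and Sox12, the relatives of Sox4 in the SoxC group, were at 4.11 ± 1.04 and 1.84 ± 1.46, and P-cadherin (Cdh3) was at 4.96 ± 1.04. For Otx2 and Pou3f1 the close relatives were nearly silent, as were Foxd2 and Foxd4 for Foxd3. Otx1 had 0 to 2 reads in the shScr libraries and Foxd2 had 0 to 1, and Pou3f2 and Foxd4 had 0 reads in all 5. Pou3f3 (0.101), Pou3f4 (0.128), Foxd1 (0.374) and the relatives of Zic2, Zic1 (0.0273) and Zic4 (0.00306), had means under that of Sox3. Foxd1 varied between the shScr libraries, from 0 to 52 reads and up to 1.11 RPKM.

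The depletions were then compared on the deposited values, which are on a log2 scale with a minimum of 4.25 for 0 reads. Each difference was tested with limma and adjusted by Benjamini-Hochberg over all 19490 genes, with a threshold of 0.05, and with an exact permutation test of 5 against 5 libraries, whose smallest possible p is 0.00794. Between shTet1 and shScr, 0 of the 8 genes passed (0.0718% of all genes passed), and adjusted p-values ran from 0.361 to 0.939. The differences ran from −0.63 to 0.43 with a median of −0.27, and 7 of the 8 means were below shScr, against a median of 0.01 over all genes and 52.4% of genes above shScr. Between shTet2 and shScr, 0 of the 8 passed as well (0.39% of all genes), with adjusted p-values from 0.213 to 0.988. Those differences ran from −0.52 to 0.72 with a median of 0.09, and the median over all genes was 0.04. Here 6 of the 8 means were above shScr, beside 56.8% of all genes. At an unadjusted p under 0.05, 1 gene passed for shTet1 (Cdh2, against 11.8% of all genes) and 1 for shTet2 (Otx2, against 11.6% of all genes). Both comparisons rest on the same shScr libraries.

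Between the 2 depletions, Otx2 and Sox4 were higher in shTet2 than in shTet1, that is 2 of 8 genes, against 4.24% of all genes called in either direction. At an unadjusted p under 0.05, 3 genes passed (Cdh2 as well), against 15.7% of all genes. Means were higher in shTet2 for 7 of the 8 genes, beside 52.7% of all genes. By the check described below, the replicate numbers were taken as pairs in this comparison and in shTet1 against shScr. That check cannot tell pairs from the split of the replicates. With the number as a block, Otx2, Sox4 and Cdh2 passed between the depletions, against 11.2% of all genes, and 0 of 8 passed between shTet1 and shScr, against 4.8% of all genes. The 5 libraries of a group did not overlap those of the other for 1 of 8 genes between shTet1 and shScr (Cdh2, 2.62% of all genes), for 0 of 8 between shTet2 and shScr (2.7%) and for 0 of 8 between the depletions (6.04%).

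**Figure D2:**
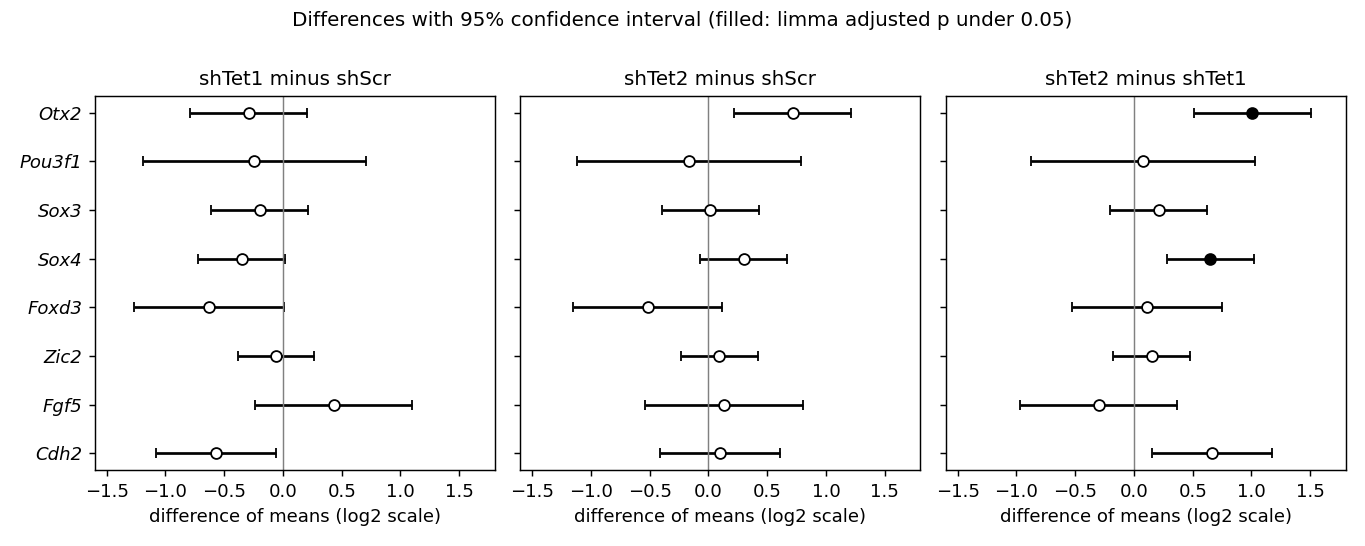
Differences of group means on the log2 scale of the deposited values with 95% confidence intervals, for shTet1 minus shScr, shTet2 minus shScr and shTet2 minus shTet1, n = 5 libraries per group. Filled points (Otx2 at 1.01 and Sox4 at 0.65, both in the last panel) passed limma with a Benjamini-Hochberg adjusted p under 0.05.

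Otx2, the homeobox factor that acts early in the exit from the naive state, had the largest difference of the 8 genes between the depletions. In shScr replicates 1 to 5 it was 9.97, 10.45, 9.50, 9.81 and 9.06. In shTet1 it was 9.70, 9.94, 9.44, 9.33 and 8.93, and in shTet2 it was 10.76, 10.82, 10.48, 10.41 and 9.91. The shTet2 library of each number was above both others of that number in 5 of 5 cases, yet the groups overlapped, since shTet2 replicate 5 was just below shTet1 replicate 2. The means were 9.76 ± 0.52, 9.47 ± 0.38 and 10.48 ± 0.36 (SD, n = 5 each). The shTet2 mean exceeded the shTet1 mean by 1.01 (SE 0.24, 95% confidence interval 0.51 to 1.51, limma adjusted p = 0.0192, exact permutation p = 0.0159). In normalised reads, shTet2 averaged 1421 ± 339 and shTet1 691 ± 187, a level in shTet2 of 206% of that in shTet1. The difference was 0.97 in replicates 1 and 2 and 1.03 in replicates 3 to 5. The call was lost without shTet2 replicate 1 (adjusted p = 0.0570), without shTet2 replicate 2 (0.0616), with no filter on low values (0.0633), and without the 4 libraries rich in receptor reads (0.180, with a difference of 0.97).

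Against shScr, Otx2 differed by 0.72 in shTet2 (SE 0.24, 95% confidence interval 0.22 to 1.22), with a limma adjusted p of 0.213 and an exact permutation p of 0.0476. Its shTet2 value was higher in 5 of 5 same-numbered libraries, though the numbers were not taken as pairs in this comparison. The difference was 0.58 within replicates 1 and 2 and 0.81 within replicates 3 to 5. With this split as a term of the fit, Otx2 passed with a limma adjusted p of 0.0356, as the only one of the 8 genes, against 1.36% of all genes. In shTet1 the mean was 0.29 below shScr (SE 0.24, 95% confidence interval −0.79 to 0.21, limma adjusted p = 0.701), with shTet1 lower in 5 of 5 same-numbered libraries. This difference was −0.12 without shScr replicate 2 and −0.47 without shScr replicate 5. Group membership held 55.0% of the variance of Otx2 over the 15 libraries and the split of the replicates a further 28.5%.

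Sox4, a transcription factor of many progenitor cells, went the same way at a smaller size. The shScr libraries stood at 10.03, 10.08, 10.02, 9.66 and 10.15, the shTet1 libraries at 10.17, 9.49, 9.62, 9.07 and 9.85, and the shTet2 libraries at 10.37, 10.28, 10.55, 9.93 and 10.32. Replicate 4 was the lowest of its group in all 3 groups, and the groups overlapped. The means were 9.99 ± 0.19, 9.64 ± 0.41 and 10.29 ± 0.23 (SD, n = 5 each). Between the depletions Sox4 differed by 0.65 (SE 0.18, 95% confidence interval 0.28 to 1.02, limma adjusted p = 0.0431, exact permutation p = 0.0159), and shTet2 was higher in 5 of 5 same-numbered libraries. The level in normalised reads was 156% of that in shTet1. The difference was 0.50 within replicates 1 and 2 and 0.75 within replicates 3 to 5. The differences from shScr were −0.35 in shTet1 (limma adjusted p = 0.458) and 0.30 in shTet2 (limma adjusted p = 0.554, exact permutation p = 0.0476). The call between the depletions held in 3 of the 10 fits that left out 1 library, and was lost without shTet1 replicate 2, 3 or 4 and without shTet2 replicate 1, 2, 3 or 5, with limma adjusted p-values from 0.0752 to 0.113. It was also lost without the 4 libraries rich in receptor reads (0.130), with the libraries centred on their medians (0.108), in a fit of only these 2 groups (0.0738) and with no filter on low values (0.0809). Over the fits that left out 1 library the difference ran from 0.51 to 0.78, and it was 0.54 without the 4 libraries. With the share of receptor reads as a covariate, both Sox4 (limma adjusted p = 0.00652) and Otx2 (0.0182) passed. This setting called 1004 of all 19490 genes, against 827 in the main fit.

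**Figure D3:**
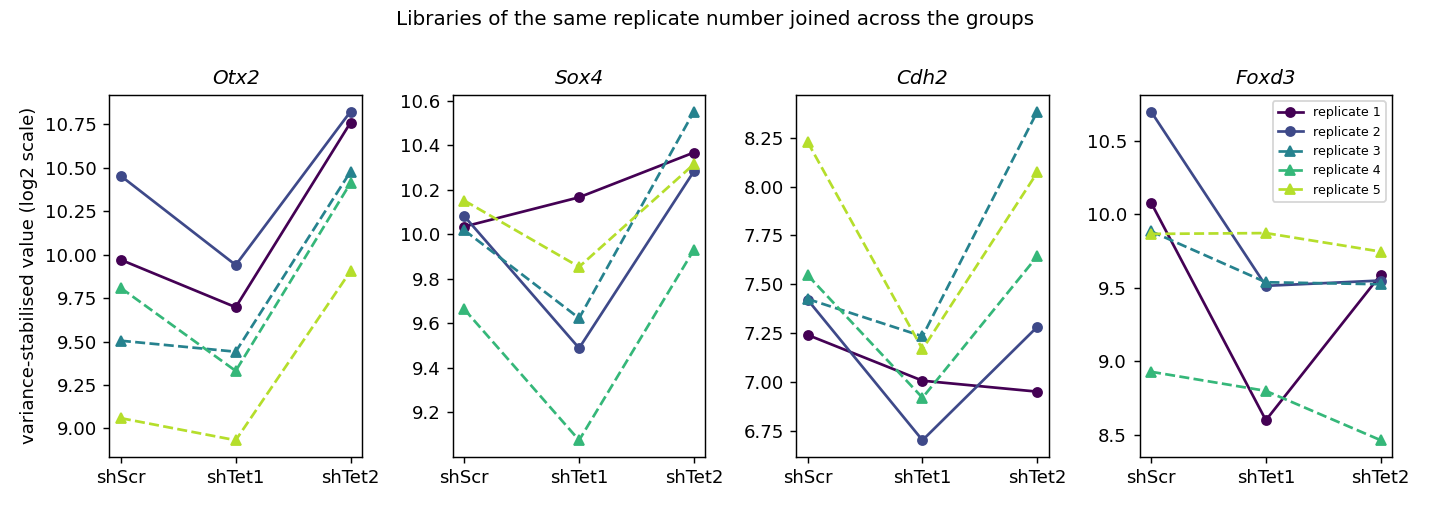
Deposited values on the log2 scale in shScr, shTet1 and shTet2 for Otx2, Sox4, Cdh2 and Foxd3, with lines that join libraries of the same replicate number (circles and solid lines for replicates 1 and 2, triangles and dashed lines for replicates 3 to 5). All 5 lines of Otx2 rise from shTet1 to shTet2, from means of 9.47 to 10.48, and all 5 lines of Cdh2 go down from shScr to shTet1, from 7.57 to 7.01.

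Foxd3, the forkhead factor, had lower means in both depletions without passing the test in either. The shScr libraries stood at 10.08, 10.70, 9.89, 8.93 and 9.87, the shTet1 libraries at 8.60, 9.51, 9.54, 8.80 and 9.87, and the shTet2 libraries at 9.59, 9.55, 9.53, 8.46 and 9.75. Replicate 4 was low in every group, and the groups overlapped over most of their range. The difference was −0.63 in shTet1 (SE 0.30, 95% confidence interval −1.26 to 0.01, limma adjusted p = 0.434, exact permutation p = 0.135) and −0.52 in shTet2 (SE 0.30, 95% confidence interval −1.15 to 0.12, limma adjusted p = 0.553, exact permutation p = 0.214). In normalised reads the levels were 62.1% and 66.6% of shScr. The shTet2 difference was −0.29 without shTet2 replicate 4 and −0.32 without shScr replicate 2. The shTet2 library was below the shScr library of its number in 5 of 5 cases, and the shTet1 library in 4 of 5. Between shTet2 and shScr, however, the numbers were not taken as pairs. The size of the difference was uneven between the replicates, at −1.33 within replicates 1 and 2 and −0.16 within replicates 3 to 5 for shTet1. For shTet2 it was −0.82 and −0.32 in the same order.

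Pou3f1, the POU factor of the primed epiblast, was the most variable of the 8 genes, with a range of 2.98 over all libraries (36 to 429 reads). In shScr it was 8.31 and 9.17 in replicates 1 and 2 but 7.05, 6.19 and 6.46 in replicates 3 to 5. The shTet1 libraries stood at 6.92, 8.14, 7.47, 6.65 and 6.77 and the shTet2 libraries at 7.56, 7.64, 7.69, 6.63 and 6.84. The split of the replicates held 47.6% of its variance and the groups 1.69%. The differences from shScr were −0.24 in shTet1 (limma adjusted p = 0.900) and −0.16 in shTet2 (limma adjusted p = 0.945), and both had opposite signs in the 2 sets of replicates. They were −1.20 and −1.13 in replicates 1 and 2, but 0.40 and 0.48 in replicates 3 to 5.

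Zic2 and Sox3 passed in none of the 3 comparisons. The zinc finger factor Zic2 ranged from 9.28 to 9.89 in shScr, from 9.34 to 9.66 in shTet1 and from 9.48 to 10.16 in shTet2, so that the groups overlapped. Its 95% confidence intervals against shScr were −0.38 to 0.27 in shTet1 and −0.23 to 0.42 in shTet2, the narrowest of the 8 genes. Both differences changed sign between the sets of replicates. They were −0.24 and −0.21 within replicates 1 and 2, but 0.06 and 0.30 within replicates 3 to 5. Sox3, the SOX factor of early neural cells, ranged from 5.12 to 6.0 in shScr, from 5.15 to 5.60 in shTet1 and from 5.23 to 5.98 in shTet2. Its intervals were −0.61 to 0.22 and −0.40 to 0.43. These are close to the minimum of the scale, where differences are compressed, and in normalised reads Sox3 was at 65.6% of shScr in shTet1 and 97.8% in shTet2. The split of the replicates held 43.7% of the variance of Sox3, which was 0.40 lower on average in replicates 1 and 2 than in replicates 3 to 5, the opposite of Pou3f1, which was 1.10 higher. The differences of Sox3 from shScr were 0.19 in shTet1 and 0.15 in shTet2 within replicates 1 and 2. Within replicates 3 to 5 they were −0.45 and −0.07.

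Fgf5, the growth factor of the post-implantation epiblast, was the one gene of the 8 with a higher mean in shTet1 than in shScr. Its shScr libraries held 16, 72, 21, 36 and 14 reads, those of shTet1 25, 159, 54, 65 and 23, and those of shTet2 31, 49, 52, 57 and 23. On the deposited scale the shScr libraries stood at 5.54, 6.97, 5.79, 6.19 and 5.47 and the shTet1 libraries at 5.61, 7.30, 6.69, 6.67 and 5.85. Replicate 2 was the highest in both groups, replicates 1 and 5 were low in both, and the groups overlapped. The difference was 0.43 in shTet1 (SE 0.32, 95% confidence interval −0.24 to 1.10, limma adjusted p = 0.662, exact permutation p = 0.317), with shTet1 higher in 5 of 5 same-numbered libraries. Leaving out shTet1 replicate 2 lowered this value to 0.21, and leaving out shScr replicate 2 raised it to 0.68. In shTet2 the difference was 0.13 (95% confidence interval −0.54 to 0.80, limma adjusted p = 0.933). Within replicates 1 and 2 the differences were 0.20 in shTet1 and −0.28 in shTet2. Within replicates 3 to 5 they were 0.59 and 0.41, so that the sign changed in shTet2.

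Cdh2 (chromosome 18, 16747386 to 16967755, minus strand, with up to 16 exons), which encodes the adhesion protein N-cadherin, was lower in every shTet1 library than in any shScr library. The shScr libraries stood at 7.24, 7.42, 7.42, 7.55 and 8.23, those of shTet1 at 7.01, 6.70, 7.23, 6.92 and 7.17, and those of shTet2 at 6.95, 7.28, 8.38, 7.64 and 8.07. The lowest shScr library (7.24) lay just above the highest shTet1 library (7.23), and shTet2 spread over both groups. The difference between shTet1 and shScr was −0.57 (SE 0.24, 95% confidence interval −1.08 to −0.06) and did not pass over all genes (unadjusted p = 0.0315, limma adjusted p = 0.361), with an exact permutation p of 0.00794, the smallest that can be reached. It was −0.48 within replicates 1 and 2 and −0.63 within replicates 3 to 5, and normalised reads were 59.0% of shScr. In shTet2 the difference from shScr was 0.09 (95% confidence interval −0.42 to 0.60, limma adjusted p = 0.939). This difference was −0.21 within replicates 1 and 2 and 0.30 within replicates 3 to 5. Between the depletions it was 0.66 (SE 0.24, 95% confidence interval 0.15 to 1.17), with a limma adjusted p of 0.161, which became 0.0227 with the replicate number as a block. Per length, Cdh1 exceeded Cdh2 by a factor of 76.0 ± 27.2 in the control, 152 ± 53.0 with shTet1 and 73.0 ± 24.3 with shTet2 (SD, n = 5 each), so that E-cadherin was the main of the pair in all groups, and the ranges of the 3 groups overlapped.

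**Figure D4:**
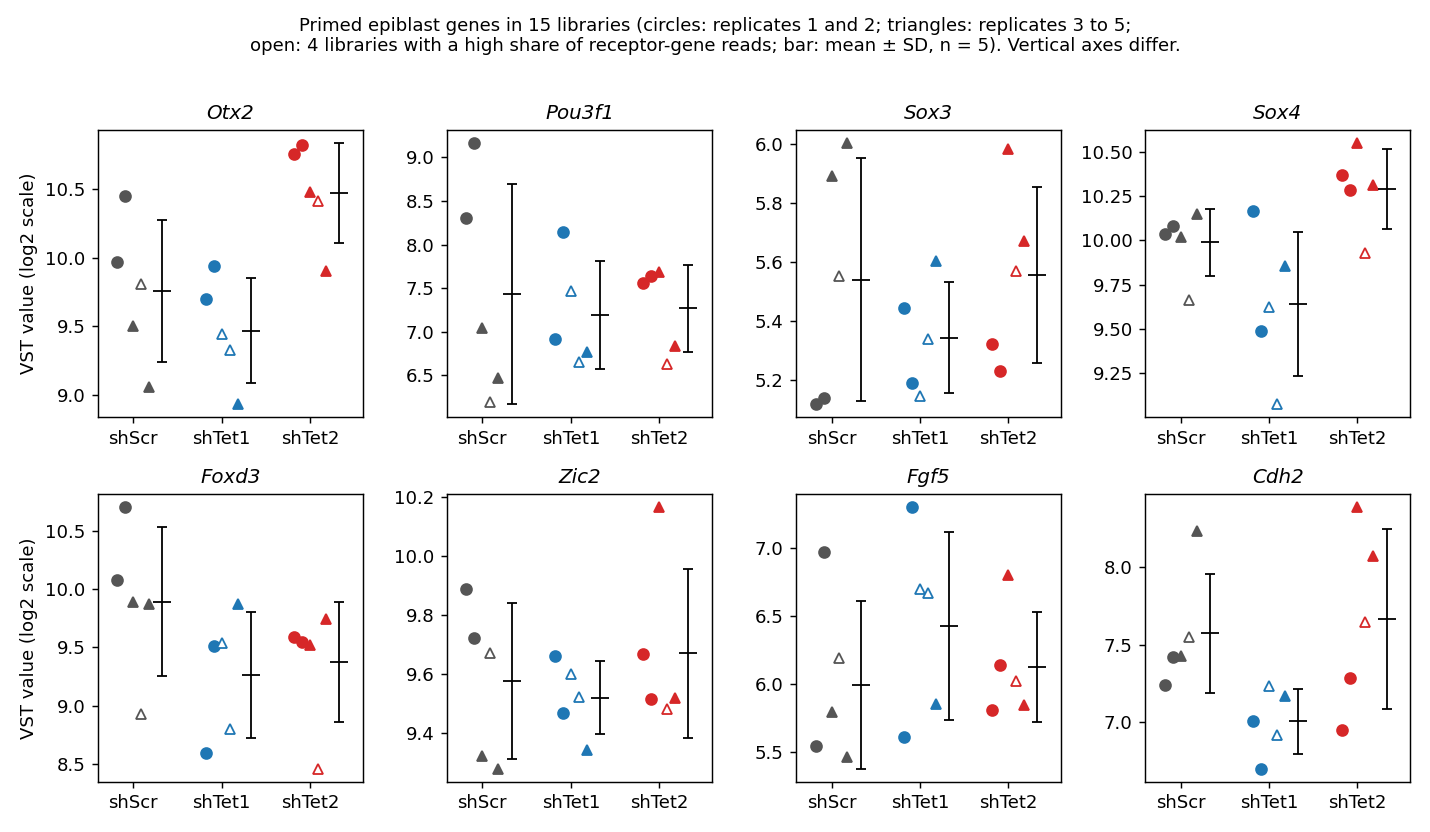
Deposited values on the log2 scale of the 8 genes in each of the 15 libraries, with the mean and SD of each group of 5 beside the points, circles for replicates 1 and 2, triangles for replicates 3 to 5 and open symbols for the 4 libraries rich in receptor reads. Otx2 is highest in shTet2 (mean 10.48), Cdh2 is lowest in shTet1 (mean 7.01), and for Pou3f1 replicates 1 and 2 lie above replicates 3 to 5 in shScr, but not in shTet1 or shTet2.

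The 8 genes did not vary as 1 block across the libraries. As a description over 15 libraries that share the replicate split and the normalisation, Pearson's r between the values of 2 members ran from −0.57 (Pou3f1 and Sox3) to 0.74 (Sox3 and Cdh2). With the group means taken out, Otx2 and Pou3f1 had an r of 0.74, whereas Otx2 had −0.75 with Sox3 and −0.65 with Cdh2. Pou3f1 and Foxd3 had 0.66 on the same measure. The genes most like each member were taken from 10643 genes with a symbol and a mean at least 2 units over the minimum. For Otx2 they were Cd109 (r = 0.93), Fam198b (0.92) and Ptprn (0.92), for Sox4 Tgm3 (0.86), Zbed4 (0.85) and Dennd4c (0.81), and for Cdh2 Supt6h (0.92), Ube2d2 (0.91) and Arhgef26 (0.88). For Foxd3 they were Eif4a3 (0.96), Pwp2 (0.95) and Etf1 (0.94), and for Pou3f1 Snhg7 (0.97), Vrtn (0.93) and Slc39a14 (0.93). For Zic2 they were the immediate early gene Egr1 (0.91), Bnc2 (0.88) and Tanc1 (0.85). The values were lower for Fgf5, with Galnt3 (0.87), Cdcp1 (0.78) and Slc40a1 (0.76), and for Sox3, with Zfr (0.80), Agphd1 (0.79) and Ywhae (0.79).

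Other genes of the same developmental step were read from a list of 13, which holds the methyltransferases Dnmt3a and Dnmt3b, the Wnt effector Lef1 and other formative and primed genes. All 13 were tested, and 0 passed in each of the 3 comparisons. Their median difference was 0.20 in shTet1 and 0.18 in shTet2 against shScr, and 0.02 between the depletions, beside 0.01, 0.04 and 0.01 over all genes. Among the genes reported here, those furthest from shScr were Sall2 in shTet2, at 8.10 ± 0.46 against 7.49 ± 0.20 (0.61, SE 0.21, limma adjusted p = 0.224), and Utf1 in shTet1, at 8.70 ± 0.52 against 8.11 ± 0.80 (0.59, SE 0.35, limma adjusted p = 0.544; SD, n = 5 each). The list of relatives of the 8 genes held 18 symbols, of which 17 were found and 15 tested. Fgf4, which is also on the naive list, was the only one that passed, at −0.59 between shTet2 and shTet1 (limma adjusted p = 0.0126).

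Of 12 naive genes, 1 passed between shTet2 and shScr (Dppa3, an egg and germ cell factor, higher by 1.41, limma adjusted p = 0.0372), beside 0.39% of all genes, and 1 between the depletions (Fgf4), beside 4.24% of all genes. The median differences of the naive list were 0.13 in shTet1 and −0.22 in shTet2, where 10 of 12 means were below shScr. Of 4 core factors 0 passed in all 3 comparisons, and the largest differences from shScr were −0.31 for Pou5f1 in shTet2 and −0.29 for Sall4 in shTet1.

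Markers of other cell types were read as lists, with the sum of each list per library. Summed normalised reads of all 8 members ran from 3108 to 5614 per library in shScr, 2446 to 3437 in shTet1 and 3536 to 5237 in shTet2. The neuroectoderm list (10 of 12 symbols found, 8 tested) came to 1198 to 2306, 1121 to 2191 and 1217 to 2829 in the same order. Hes5 and Six3 were at 0 reads in 11 libraries and Neurog2 in 10. Tubb3 (537 to 1468), Nes (210 to 1098) and Pax6 (94 to 277) had reads in every library. The neural crest list (4 of 5 found and tested) came to 57.3 to 93.2, 32.9 to 66.4 and 38.5 to 90.2. Sox9 was at 0 in 7 libraries and Sox10 in 2, while Twist1 had 26 to 103 reads in every library. In neither list did a gene pass in any comparison, and the largest differences from shScr were 0.61 for Nes and 0.47 for Sox10, both in shTet2. Of 8 primitive streak and mesoderm genes (66.6 to 188, 141 to 215 and 82.3 to 183), Eomes was lower in shTet2 than in shTet1 by −0.94 (limma adjusted p = 0.0185). Of 6 trophoblast genes (165 to 465, 133 to 192 and 209 to 802), Ascl2 was higher in shTet2 than in shTet1 by 0.88 (limma adjusted p = 0.0312). Eomes and Ascl2 were each the only gene of their list that passed, beside 4.24% of all genes between the depletions. Elf5 was at 0 in 9 libraries, while Krt8 had 61 to 589 reads in every library. Of 7 primitive endoderm genes (624 to 986, 380 to 669 and 186 to 475), 0 passed, with the largest differences for Pdgfra (−0.95, limma adjusted p = 0.0535) and Dab2 (−0.95, limma adjusted p = 0.0788) in shTet2. Of 5 mesenchyme genes (59.0 to 264, 129 to 157 and 198 to 212), 0 passed, with a median difference from shScr of 0.01 in shTet2, where the largest were 0.71 for Thy1 and 0.48 for Col1a1. The sums of the trophoblast and the mesenchyme lists were higher in every shTet2 library than in any shTet1 library. So was that of the 8 members, which includes the reads of Otx2 and Sox4 and is therefore no result apart from their calls. Between the depletions 6 of 6 trophoblast means were higher in shTet2, but only 2 of 5 mesenchyme means, with a median difference of −0.04. The sum of the primitive endoderm list was lower in every shTet2 library than in any shScr library. Taken singly, 6.04% of all genes did not overlap between the depletions, and 2.7% between shTet2 and shScr. No such share was computed for sums of lists. All 7 primitive endoderm genes had lower means in shTet2 than in shTet1 and shScr. The part of these lists in the differences of Otx2 and Sox4 was not tested.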

How the data were processed

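Directional rRNA-depleted libraries were made and sequenced by the authors. Per the labels and the paper's methods, the authors trimmed reads with Trim Galore 0.3.3, aligned them to mm9 with TopHat2 2.0.9, counted them per gene in Seqmonk and transformed the counts with DESeq2. The deposited table by the authors is therefore variance-stabilised, on a log2 scale, not counts. Its values were tested with limma, and the count test of the study was not run on the recovered reads. For the reads, the values were inverted with the table minimum of 4.25 as 0 reads. This gave whole reads (within 0.1) for 100% of the values in each library. Depth ran from 15258291 to 35432425 gene reads.

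Groups followed the hairpin named in the labels. Genes above the minimum in at least 5 of 15 libraries were fitted in limma 3.58.1 (R 4.3.3; lmFit, eBayes with a variance trend, all 15 libraries, group as the only term, two-sided) and adjusted by Benjamini-Hochberg. The exact permutation tests of single genes were two-sided (SciPy 1.17.1) and did not use the replicate numbers as pairs in any comparison. The fit was tested on simulated data. Levels per length used GENCODE vM1 exons, which may differ from those the authors counted.

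To check the replicate numbers, each gene was taken as its deviation from the group mean, and libraries with the same number were correlated across genes. For shTet1 and shScr r was 0.374 to 0.657, and for the 2 depletions it was 0.330 to 0.731, over 0.1 in 5 of 5 pairs in both, and the numbers were taken as pairs there. Between shTet2 and shScr 4 of 5 pairs passed, and they were not.

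The members, gene lists, replicate split and tests were chosen with earlier results of these data known. All 8 members were named, with the 3 genes most like each, and of each list the genes past the threshold or else the 2 with the largest difference from shScr. Alternatives covered the filter, the trend, the libraries in the fit, scaling, pseudocounts of 0.5 and 2 reads per 1000000, weights, the replicate block, the replicate split, receptor reads and leaving out each library. Leaving out the 4 libraries rich in receptor reads was chosen after seeing the data. The table of repeats was not used here, and 1 gene of the lists is not reported here.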

Additional observations from a re-analysis of the deposited data

Results flagged for a closer look

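Otx2 and Sox4 differed between the 2 depletions by a test of that difference, at 1.01 for Otx2 and 0.65 for Sox4 on the log2 scale, although neither passed against shScr in either depletion. The call held in 8 of the 10 fits that left out 1 library for Otx2 and in 3 of 10 for Sox4.

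Single libraries stood apart from the other 4 of their group in 3 of the 24 groups examined (8 genes in 3 groups), by the size of the gap relative to the range of the group, a test that chance alone passes in about 1 of 20 groups. Sox4 was 9.66 in shScr replicate 4, against 10.02 to 10.15 in the others. Foxd3 was 8.46 in shTet2 replicate 4, against 9.53 to 9.75 in the others. Zic2 was 10.16 in shTet2 replicate 3, against 9.48 to 9.67 in the others. Replicate 4 of shScr and replicate 4 of shTet2 are among the 4 libraries rich in receptor reads, and the part of that share in these values was not tested.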

How the results depend on the processing

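Of 552 values of single genes under 28 other settings, 501 kept their direction and their side of the threshold, and the cause of the changes below was not tested. Between the depletions the count of 2 genes became 0 with no filter and without the 4 libraries rich in receptor reads, 1 in a fit of only the 2 groups and with median centring (Otx2 in both), and ran from 0 to 2 when 1 library was left out. It was 3 with the replicate number as a block and with the replicate split as a term, which added Cdh2. These 2 settings called 2178 and 1263 of all 19490 genes, against 827 in the main fit. The adjusted p of Otx2 was 0.0633 and that of Sox4 0.0809 with no filter. In shTet2 against shScr, where the numbers were not taken as pairs, 1 gene (Otx2) passed under other settings, against 0 in the main fit. These were a replicate block (limma adjusted p = 0.00168), array weights and the replicate split as a term. Of all 19490 genes, they called 840, 283 and 266, against 76 in the main fit. The block changed no other call of the 8 genes. Every sign change concerned a gene that did not pass. With array weights, Pou3f1 was 0.027 and Zic2 0.035 in shTet1, and Pou3f1 was 0.12, Sox3 −0.19 and Cdh2 −0.12 in shTet2, against shScr. With median centring, Sox3 was −0.092, Zic2 −0.014 and Cdh2 −0.013 in shTet2. With quantile normalisation, Fgf5 was −0.022, Sox3 −0.11 and Cdh2 −0.0060 in shTet2, and Pou3f1 −0.00029 between the depletions. When 1 library was left out, the values of genes that changed sign ran, against shScr, from −0.55 to 0.19 for Pou3f1 and −0.13 to 0.021 for Zic2 in shTet1, and in shTet2 from −0.039 to 0.38 for Fgf5, −0.48 to 0.27 for Pou3f1, −0.091 to 0.13 for Sox3, −0.030 to 0.17 for Zic2 and −0.085 to 0.27 for Cdh2. Between the depletions they ran from −0.056 to 0.32 for Pou3f1 and −0.056 to 0.34 for Foxd3. Fgf5 (14 to 159) and Sox3 (6 to 31) rested on the fewest reads per library.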
